A study of Rattus norvegicus with 320 samples.

Results

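The testis of Fischer 344 rats was compared between adult males of week 21 and aged males of week 104, over every miRNA of the count table. All 8 testis samples labelled with these ages were used, 4 rats per age, out of 320 samples in the series, and no rat was treated. The males were pair-housed under standard conditions, and each whole organ was ground to powder before RNA extraction, so every value is an average over the seminiferous tubules, the interstitium and the vessels. Testis samples of week 2 and week 6, 4 rats each, shared the fit and are given as levels. The same 10 organs were taken from each male, and the 72 samples of the 9 other organs at weeks 21 and 104 served for a comparison of organs.

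MicroRNAs are short RNAs that are cut from hairpin precursors and loaded into Argonaute proteins, where bases 2 to 8, the seed, select target mRNAs. The adult testis makes a distinctive set. The miR-34b and miR-34c hairpins and their miR-449 relatives are abundant in meiotic spermatocytes and in spermatids, and mice that lack both loci are infertile. A fast-evolving cluster of hairpins on the X chromosome is also made mainly in testis, while Sertoli, Leydig, peritubular and vascular cells carry miRNAs that are shared with many other tissues.

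The sequences below are those of the miRNAs that the results turn on, written 5′ to 3′ as in the count table with the seed in capitals. The first set shares the seed GGCAGUG of the germ cell miRNAs, and all 5 measured miRNAs with this seed were called lower at week 104 (22.7% of all 616 miRNAs were).
miR-34c-5p: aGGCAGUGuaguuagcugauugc
miR-34b-5p: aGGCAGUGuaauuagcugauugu
miR-449a-5p: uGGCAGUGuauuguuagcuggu
miR-449c-5p: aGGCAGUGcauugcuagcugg
miR-34a-5p: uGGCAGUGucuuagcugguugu

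The second set comes from the X-linked cluster, where 3 mature miRNAs of separate hairpins share the seed AUUCAGA and all fell.
miR-871-5p: uAUUCAGAuuggugccggucacau
miR-743a-5p: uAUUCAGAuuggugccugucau
miR-881-5p: uAUUCAGAgugguagcagu

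The third set gives miRNAs that rose. All 3 measured miRNAs with the seed AGCACCA of the miR-29 family rose (20.3% of all 616 did), and so did 3 of 6 with the seed AGCAGCA of miR-195-5p and miR-497-5p.
miR-10b-5p: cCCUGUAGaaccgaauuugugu
miR-30a-5p: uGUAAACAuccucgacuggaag
miR-29a-3p: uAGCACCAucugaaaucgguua
miR-29b-3p: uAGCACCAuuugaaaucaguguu
miR-29c-3p: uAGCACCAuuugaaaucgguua
miR-195-5p: uAGCAGCAcagaaauauuggc
miR-497-5p: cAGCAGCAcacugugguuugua
miR-335: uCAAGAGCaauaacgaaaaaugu
miR-135b-5p: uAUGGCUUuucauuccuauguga

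The last set shows 1 seed, AUUGCAC, whose members went in opposite directions. With TMM scaling (explained below) miR-32-5p rose, miR-92b-3p and miR-363-3p fell, and miR-25-3p and miR-92a-3p were not called.
miR-32-5p: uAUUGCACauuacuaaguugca
miR-92b-3p: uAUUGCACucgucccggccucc
miR-363-3p: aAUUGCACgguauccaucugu
miR-25-3p: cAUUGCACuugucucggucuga
miR-92a-3p: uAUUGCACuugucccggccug

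The samples of the ages differed in total miRNA counts and in composition. Total miRNA counts were 1093929 to 1413760 per sample at week 21 and 4464215 to 7383298 at week 104. These totals are not the sequencing depth, as the study lists more reads of all kinds per testis sample at week 21. It reports that piRNA, another class of small RNA, dominated the testis libraries of adolescent and adult rats. For every testis sample of week 104 it lists fewer piRNA than miRNA reads. A floor of 3 counts corresponded to 2.12 to 2.74 CPM (counts of a miRNA per 1000000 miRNA counts of the sample) at week 21 and 0.406 to 0.672 CPM at week 104, for counting error only. miR-10b-5p alone held 8.04 to 16.8% of counts at week 21 and 50.8 to 61.9% at week 104, and the 10 most abundant miRNAs held 57.8 to 68.9% and 83.8 to 88.5%. A share of this size lowers the CPM of all other miRNAs. TMM, a scaling that assumes no change for the bulk of miRNAs, gave factors of 1.01 to 1.27 at week 21 and 0.303 to 0.569 at week 104, and library size only shifted the log2 fold changes by a median of -1.24 relative to TMM. These data do not fix the absolute scale. Fold changes below use TMM unless stated, levels are in CPM, and a log2 fold change is week 104 minus week 21.

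Of 616 miRNAs, 125 were called higher at week 104 (20.3%) and 140 lower (22.7%), by at least 2-fold and with a Benjamini-Hochberg adjusted p under 0.05 in the quasi-likelihood test of edgeR. With library size only, 23 were higher (3.73%) and 253 lower (41.1%). All 140 falls and 23 of the rises were called in the same direction under both scalings, and 26 of the 125 rises changed sign. Since library size only moved log2 fold changes by a median of -1.24, falls with TMM were nearly bound to stay falls. A call under both scalings is therefore a check of rises only. In CPM, all 4 aged samples lay above all 4 adult ones for 31 miRNAs (5.03%) and below them for 244 (39.6%). For 116 miRNAs no sample of either age exceeded 3 counts, so a change was not detectable at these miRNA counts.

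**Figure D1:**
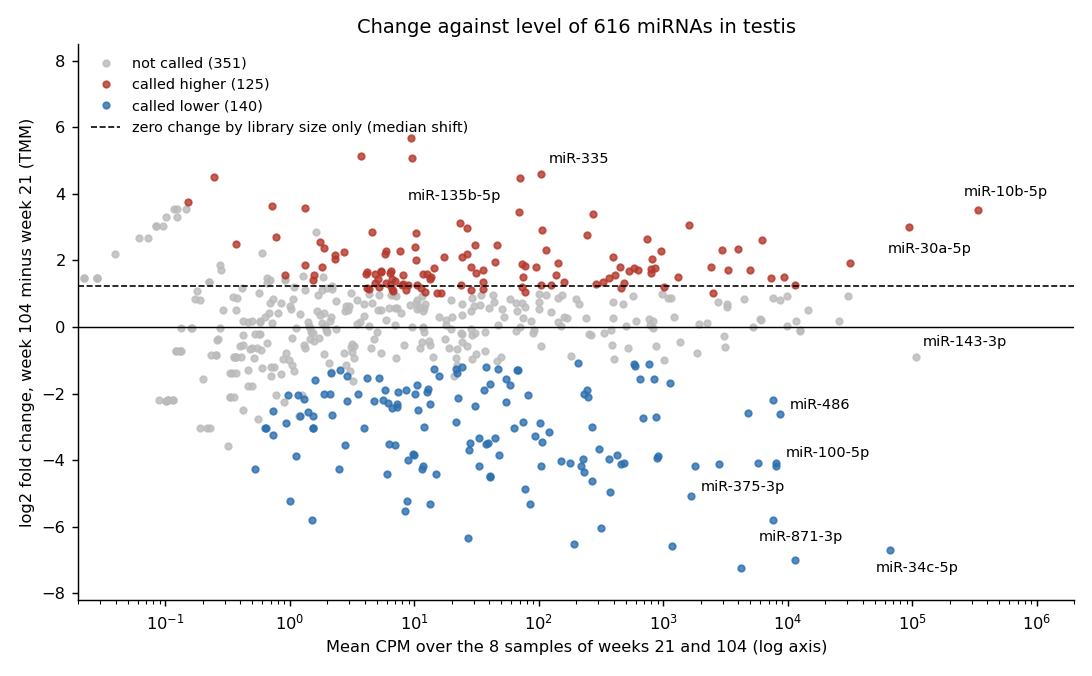
Log2 fold change of each of the 616 miRNAs in testis (week 104 minus week 21, TMM) against its mean CPM over the 8 samples on a log axis. Red points are the 125 called higher, blue the 140 called lower and grey those not called, and the dashed line marks where zero change would lie with library size only, so points between it and the solid line change sign on average. miR-34c-5p lies at -6.71 and miR-10b-5p at 3.51.

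The testis label was checked with miR-34c-5p, the germ cell marker. At week 21 it was at 141840, 131850, 134640 and 118680 CPM, against a mean of 3824 CPM in lung, the highest of the 9 other male organs. At week 104 it was at 1784, 553, 60.9 and 40.6 CPM in replicates 1 to 4. The groups did not overlap, and the aged rats differed widely among themselves. In mean level the aged testis, at 609.7 ± 818 CPM (SD, n = 4), was below 2 other organs, so this marker alone no longer set it apart. The gonadal miR-202-5p still did, at 3954, 4497, 2584 and 4390 CPM in the aged samples against a mean of 107 CPM in thymus, the highest of the other organs. Across miRNAs, log2 levels of the aged samples correlated at 0.828 to 0.919 with mean testis of week 21 and at 0.881 to 0.927 with mean testis of week 2. Each aged sample correlated most with testis of week 104, its own group, at 0.97 to 0.976. Replicate 3 correlated at 0.893 with thymus and at 0.884 with spleen. Its values for testis of weeks 2 and 21 were slightly lower, at 0.881 and 0.841, and that for testis of week 104 was 0.971. These correlations describe single libraries and share their abundant miRNAs.

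All 6 measured members of the germ cell list, both strands of miR-34b and miR-34c with miR-449a-5p and miR-449c-5p, fell under both scalings. Together they held 152600 to 173300 CPM at week 21 and 47 to 2197 CPM at week 104. The log2 fold change of miR-34c-5p was -6.71 (SE 0.82, edgeR adjusted p = 1.75e-06). miR-34b-5p, from the neighbouring hairpin, was at 10216, 7937, 7633 and 7888 CPM at week 21 and at 81.3, 20.9, 3.56 and 2.03 CPM at week 104. Its log2 fold change of -7.23 (SE 0.79, edgeR adjusted p = 5.22e-07) was the largest fall among miRNAs of at least 100 CPM. For both, replicate 1 was the highest aged sample and replicates 3 and 4 were the lowest. miR-449a-5p, with the same seed, went from 17896, 24616, 25874 and 22687 CPM to 281, 71.9, 2.60 and 1.76 CPM, in the same order of aged rats. Without replicate 1 of week 104 the log2 fold changes were -8.0 for miR-34c-5p, -8.61 for miR-34b-5p and -8.63 for miR-449a-5p. Without replicates 3 and 4 they were -5.71, -6.26 and -5.92.

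The other strands fell as well. miR-34b-3p went from 2333 ± 99.4 to 11.8 ± 14.4 CPM and miR-34c-3p from 622 ± 30.97 to 4.52 ± 5.64 CPM (SD, n = 4 each). miR-449c-5p went from 381 ± 54.8 to 2.04 ± 2.29 CPM. Without replicate 1 of week 104 their log2 fold changes of -6.57, -6.03 and -6.51 became -7.61, -7.13 and -7.15. miR-34a-5p shares the seed but is made in many somatic tissues as a target of p53. It went from 1178, 1519, 1704 and 1446 CPM to 292, 310.3, 154 and 82.5 CPM, again without overlap, and its log2 fold change was -1.56 (SE 0.30, edgeR adjusted p = 0.000222). In whole tissue, fewer cells of a type and less RNA per cell cannot be told apart.

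**Figure D2:**
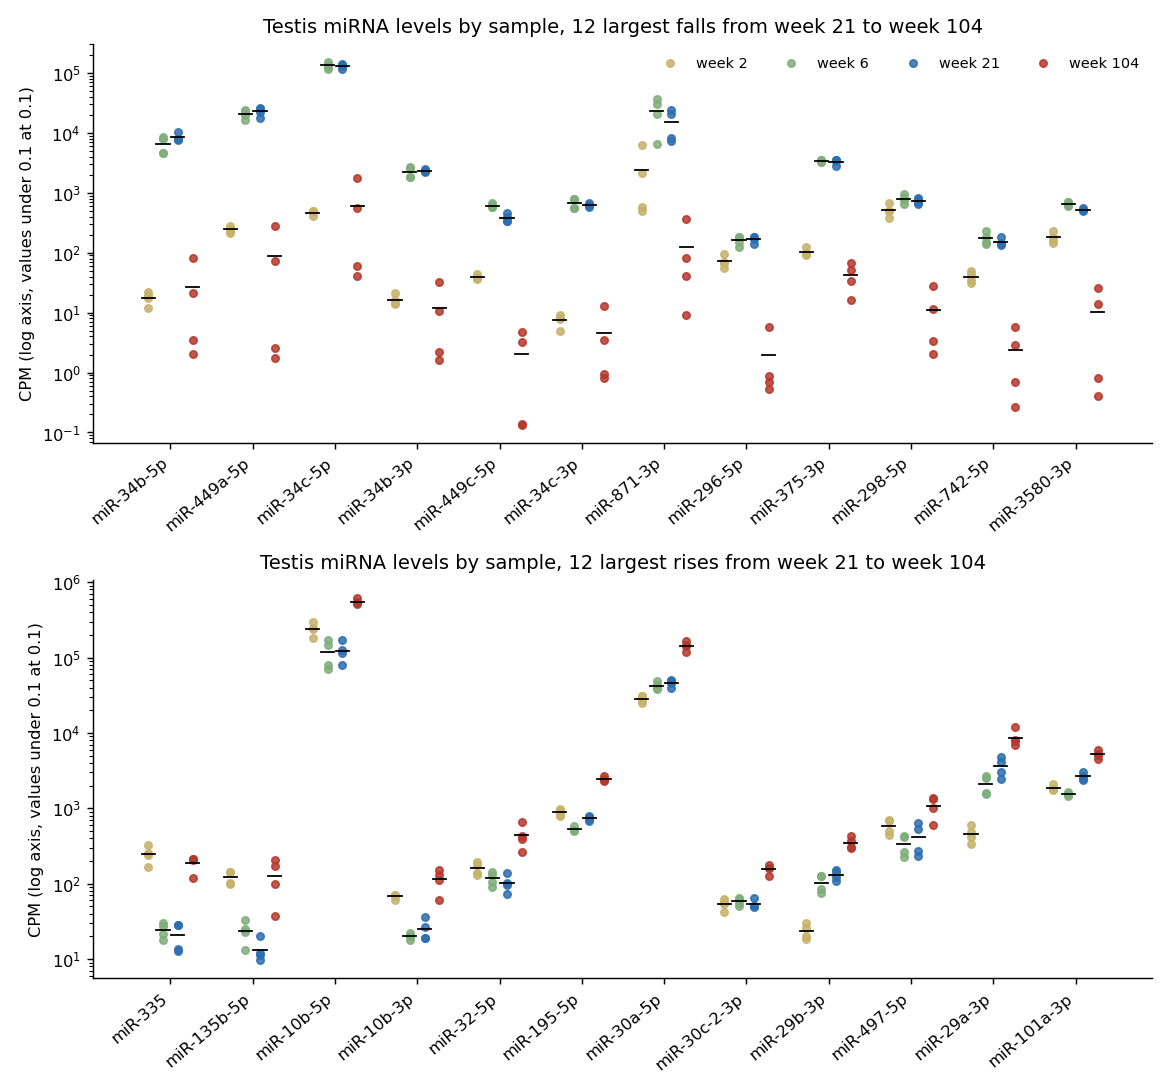
CPM on a log axis of the 12 miRNAs with the largest falls (top) and the 12 with the largest rises (bottom) in each testis sample, with 4 samples per age as points and the mean as a black bar. For the 12 falls every aged sample lies below every week 21 sample. For miR-34c-5p these are 40.6 to 1784 CPM against 118680 to 141840 CPM. The rises do not overlap except for miR-497-5p. Both sets were chosen for the size of their change. Over all 616 miRNAs 39.6% lay below and 5.03% above without overlap in CPM.

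All 19 measured members of the X-linked cluster from miR-463 to miR-883 fell, under both scalings, with a median log2 fold change of -4.10 against 0 over all 616 miRNAs. Their summed level was 46670 to 75760 CPM at week 21 and 2710, 2353, 164 and 196 CPM in the aged replicates 1 to 4. The most abundant member at week 21, miR-743b-3p, went from 18364, 14539, 17254 and 12356 CPM to 844, 726, 29.3 and 69.3 CPM, a log2 fold change of -4.17 (SE 0.64). Replicates 1 and 2 lay well above replicates 3 and 4. miR-871-3p fell most, from 24166, 8262, 20882 and 7380 CPM to 82.9, 361, 41.2 and 9.07 CPM, and was spread widely already at week 21. Its log2 fold change was -5.78 (SE 1.02, edgeR adjusted p = 9.54e-05), and -7.03 without replicate 2 of week 104. miR-3580-3p and miR-742-5p, whose hairpins lie among those of the cluster, fell by 4.64 and 4.87 on the log2 scale, and their log2 fold changes without replicate 1 of week 104 were -5.49 and -5.58.

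Among the candidate miRNAs that the authors added to the table, rno_miR_chrX_48878 was the only one with at least 10 CPM at either age. It was at 2031, 1138, 314 and 257 CPM at week 21 and at 39.6, 43.5, 5.33 and 7.58 CPM at week 104, and the log2 fold change was -4.09 (SE 0.65, edgeR adjusted p = 3.33e-05). Its adult samples were more unequal than those of the germ cell list, yet all aged samples lay below them, and without replicate 1 of week 21 the log2 fold change was -3.45.

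By the RefSeq placement of miRNAs on GRCr8, 39 of 90 on the X chromosome fell (43.3%) and 8 rose (8.89%), against 118 falls (22.3%) and 110 rises (20.8%) among all 530 placed miRNAs. Several sets of neighbours within 10000 bases moved as blocks, and those that fell on the X chromosome are counted in its 39 falls. The share of falls outside these blocks was not counted, so 43.3% is not shown to be a trait of the whole chromosome. On the X chromosome 14 of 14 mature miRNAs from the set of miR-471, miR-871 and miR-465 fell, as did 8 of 8 of miR-743a, miR-743b, miR-742 and miR-883. The same held for 5 of 5 of miR-3585, miR-201 and miR-547, and for 4 of 4 of miR-363, miR-20b and miR-17-2. The X-linked set of miR-322, miR-351 and miR-450a differed from these, with 1 of 12 higher and 0 lower.

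Other blocks that fell lie outside the X chromosome. miR-296 and miR-298, from the imprinted Gnas region, fell in all 4 mature miRNAs. miR-298-5p went from 773, 805, 708 and 658 CPM to 27.6, 11.7, 2.05 and 3.39 CPM, with a log2 fold change of -4.95 (SE 0.49, edgeR adjusted p = 1.83e-07). miR-296-5p went from 139.9, 173, 182 and 180.4 CPM to 5.82, 0.888, 0.684 and 0.542 CPM, with a log2 fold change of -5.33 (SE 0.48). In both, no aged sample reached the adult range, and without replicate 1 of week 104 the log2 fold changes were -5.71 and -6.46. miR-298-3p had no aged sample above 3 counts and was at least 52.7-fold lower, against the floor of 3 counts per sample.

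miR-132 and miR-212, which cAMP signalling through CREB induces, fell in all 4 mature miRNAs under both scalings. miR-132-3p was at 72.2, 65.7, 59.4 and 62.95 CPM at week 21 and at 10.5, 6.75, 6.16 and 5.01 CPM at week 104, and the log2 fold change was -1.90 (SE 0.24, edgeR adjusted p = 2.91e-06). miR-132-5p had a log2 fold change of -3.80 (SE 0.34) and miR-212-3p of -2.99 (SE 0.37). Their aged means were 0.539 CPM, within the floor of 0.406 to 0.672 CPM, and 1.14 CPM, little above it. The size of these falls therefore rests on few aged counts. Against the germ cell list, the summed level of these 4 was less unequal among the aged rats, at 7.58 to 15.01 CPM, down from 100.4 to 147 CPM. miR-212-5p, with an aged mean of 1.09 CPM, had a log2 fold change of -2.33 (SE 0.51), and of -1.57 without replicate 1 of week 21, its highest sample.

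Among single miRNAs, miR-375-3p, best known from pancreatic islets and other endocrine cells, went from 3406, 2754, 3469 and 3587 CPM to 67.9, 34.3, 16.6 and 51.7 CPM. Its log2 fold change was -5.08 (SE 0.29, edgeR adjusted p = 9.49e-10), and all aged samples were far below the adult ones. miR-100-5p, a relative of miR-99a, went from 26700, 9740, 19690 and 6756 CPM to 422, 879, 196 and 109 CPM, a log2 fold change of -4.07 (SE 0.65, edgeR adjusted p = 3.33e-05). In the list of miR-99, miR-100 and miR-125, 3 of 11 mature miRNAs fell and 4 rose (5 and 1 with library size only). Over all 616 miRNAs 22.7% fell and 20.3% rose (41.1% and 3.73% with library size only). The list had a median of 0.76 with TMM and -0.59 with library size only. Its next most abundant member, miR-99b-5p, was at 14173 ± 4757 and 5510 ± 1718 CPM (SD, n = 4 each) and was not called, with log2 fold changes of 0.036 with TMM and -1.36 with library size only.

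Of the list of the miR-17~92 and miR-106b~25 clusters, which are high in proliferating cells, 10 of 19 mature miRNAs fell and 0 rose, with a median of -1.11. With library size only 15 fell. Over all 616 miRNAs 22.7% and 41.1% fell. The 19 include miR-17-2-3p by its name, although it lies in the X-linked set of miR-363 and miR-20b and is among the falls there too. The most abundant ones were not among the falls. miR-92a-3p was at 18266 ± 3730 and 6559 ± 1203 CPM (SD, n = 4 each), with a log2 fold change of -0.092 (SE 0.27, edgeR adjusted p = 0.824), and of -1.48 with library size only, which was called. miR-25-3p was at 3024 ± 287 and 678 ± 139 CPM, with a log2 fold change of -0.77 that stayed short of the 2-fold limit. It was called lower with library size only (-2.16) and without replicate 3 of week 104 (-1.12). In the miR-290 to miR-295 cluster, known from embryonic stem cells, 4 of 6 fell, at summed levels of only 24.1 to 34.5 CPM at week 21 and 0.948 to 3.58 CPM at week 104.

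The largest gain in abundance was that of miR-10b-5p, whose hairpin lies in the Hoxd cluster. It was at 80435, 114770, 124990 and 168380 CPM at week 21 and at 507990, 540080, 618700 and 527430 CPM at week 104. All aged samples were above all adult ones, and the log2 fold change was 3.51 (SE 0.42, edgeR adjusted p = 1.45e-06) with TMM and 2.17 with library size only. The other strand, miR-10b-3p, gave 3.44 and 2.17. At week 104 no other male organ had a higher mean of miR-10b-5p, and adrenal gland followed with 316900 CPM, while at week 21 3 organs lay above testis. miR-10a-5p of the Hoxb cluster did not follow. It was at 8476 ± 1454 and 3766 ± 965 CPM (SD, n = 4 each), with log2 fold changes of 0.21 with TMM and -1.17 with library size only, opposite in sign. In the list of miR-10 and miR-196, 3 of 10 rose under both scalings (20.3% of all 616 with TMM and 3.73% with library size only). With library size only 3 others fell (41.1% of all 616). The third rise, miR-196c-5p, named after its values were seen, rested on replicate 4 of week 104 with 70.02 CPM. Its log2 fold change of 5.68 became 0.97 without that sample, where it was not called.

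miR-30a-5p, a broadly made miRNA, was the next most abundant miRNA of the aged testis. It was at 39397, 49762, 45745 and 48440 CPM at week 21 and at 141470, 118310, 146520 and 164080 CPM at week 104, without overlap, a log2 fold change of 3.0 (SE 0.27, edgeR adjusted p = 6.31e-08). In the miR-30 list 5 of 11 rose and 0 fell (20.3% and 22.7% over all 616 miRNAs). Library size only gave 3 rises and 5 falls (3.73% and 41.1% over all 616). The rises under both scalings were those of the miR-30a and miR-30c-2 hairpins, with miR-30c-2-3p at 53.7 ± 7.23 and 157 ± 21.2 CPM (SD, n = 4 each). miR-30d-5p, with the same seed as miR-30a-5p, went from 15998 ± 1565 to 7256 ± 1028 CPM and was not called with TMM (0.17), while library size only gave -1.14.

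The miR-29 family, which targets collagen and other matrix mRNAs, rose in 6 of 7 mature miRNAs, with a median of 2.12. With library size only 3 of them rose too. Over all 616 miRNAs 20.3% rose with TMM and 3.73% with library size only. miR-29a-3p was at 4816, 4103, 3046 and 2465 CPM at week 21 and at 8103, 7863, 7010 and 11812 CPM at week 104, and the log2 fold change was 2.62 (SE 0.25, edgeR adjusted p = 9.36e-08). miR-29b-3p rose by 2.76 and miR-29c-3p by 2.11 on the log2 scale. All aged samples lay above all adult ones for miR-29a-3p and miR-29b-3p, whereas miR-29c-3p overlapped and was not called with library size only (0.80).

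The neighbouring miR-195 and miR-497 hairpins, whose products target cyclin mRNAs, rose in all 4 mature miRNAs. miR-195-5p was at 766, 797, 724 and 689 CPM at week 21 and at 2275, 2662, 2411 and 2464 CPM at week 104, narrow in range at either age, with a log2 fold change of 3.07 (SE 0.22, edgeR adjusted p = 4.78e-09). miR-497-5p rose by 2.65 on the log2 scale (SE 0.27), with CPM that overlapped between the ages. miR-16-5p, the most abundant miRNA of the same seed, was at 17855 ± 4411 and 6989 ± 2493 CPM (SD, n = 4 each) and was not called, with a log2 fold change of -0.11 (SE 0.19), while with library size only it was called lower (-1.35). Over the whole list 4 of 10 rose and 1 fell with TMM (20.3% and 22.7% over all 616 miRNAs). With library size only 3 rose and 5 fell (3.73% and 41.1% over all 616).

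miR-335, from an intron of the imprinted Mest gene, had the largest rise among miRNAs of at least 100 CPM, from 28.3, 28.6, 12.9 and 13.4 CPM to 120.3, 207, 213 and 212 CPM (log2 fold change 4.60, SE 0.35, edgeR adjusted p = 8.08e-09). miR-135b-5p went from 11.9, 20.2, 9.64 and 11.3 CPM to 171, 98.9, 36.8 and 206 CPM (log2 fold change 4.48, SE 0.38). miR-32-5p went from 101, 137, 94.8 and 73.6 CPM to 394, 432, 264 and 658 CPM (log2 fold change 3.40, SE 0.25). None of the 3 overlapped between the ages and all were called under both scalings, with replicate 3 the lowest aged sample for miR-135b-5p and miR-32-5p and replicate 1 for miR-335. miR-101a-3p, whose known targets include Ezh2, went from 2651 ± 291 to 5226 ± 552 CPM (SD, n = 4 each), a log2 fold change of 2.35 with TMM and of 0.98 with library size only, where it was not called. The cardiac miR-208a-3p, named after its values were seen, was at 0 to 1.83 CPM at week 21, under the floor, and at 21.7, 7.81, 6.57 and 35.4 CPM at week 104, which puts it at least 7.29-fold higher.

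For other families the calls depended on the scaling. Among all 616 miRNAs 20.3% rose and 22.7% fell with TMM, and 3.73% and 41.1% with library size only. In the miR-23, miR-27 and miR-24 clusters 7 of 10 rose with TMM and 0 with library size only, with medians of 1.54 and 0.28. miR-27b-3p was at 8685 ± 776 and 10039 ± 2142 CPM (SD, n = 4 each). In the miR-26 family 3 of 4 rose and 1 fell with TMM, and 0 rose with library size only, with miR-26a-5p at 24624 ± 5562 and 38007 ± 11043 CPM. The log2 fold changes with TMM and with library size only were 1.47 and 0.19 for miR-98-5p, 1.79 and 0.36 for miR-378a-3p, and 1.26 and -0.078 for miR-21-5p, which is induced in injury. In the imprinted Dlk1-Dio3 region 27 of 80 mature miRNAs rose and 2 fell, with a median of 0.90, while library size only gave 1 rise and 8 falls and a median of -0.21. Its most abundant member miR-127-3p was at 2775 ± 356 and 2227 ± 472 CPM, so that a log2 fold change of 1.02 with TMM stood beside -0.32 with library size only. It lay just past the 2-fold limit and was not called without replicate 1 (0.99) or 4 (0.99) of week 21 or without replicate 3 (0.94) or 4 (0.99) of week 104. Without replicates 3 and 4 of week 104, 18 of the 80 rose.

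Over all 616 miRNAs 20.3% rose and 22.7% fell with TMM, and 3.73% and 41.1% with library size only. The counts of the lists below stand beside these shares. In the miR-322 list 1 of 10 rose, miR-322-5p with 3341, 1560, 228 and 841 CPM in the aged samples. Without replicate 1 of week 104 its log2 fold change was 0.90 and not called. Without replicates 3 and 4 of week 104, 5 of the 10 rose. Of miR-221 and miR-222, 2 of 4 rose, with 1.70 for miR-221-3p, and in the list of miR-378a, miR-193 and miR-365 3 of 7 rose. In the miR-181 list 1 of 10 rose, with miR-181a-5p at 18487 ± 2345 and 10616 ± 1102 CPM (SD, n = 4 each) and not called. None of these rises were called with library size only. That setting called 4 of 10 in the miR-322 list and 4 of 10 in the miR-181 list lower, near the share over all miRNAs. Of the miR-183 cluster 0 of 4, of the miR-148 family 0 of 6 and of the miR-192 list 0 of 5 were called with TMM, and with library size only 2, 4 and 3 of these fell. The list of miR-21, miR-22, miR-31a and miR-34a had 3 of 8 higher and 2 lower with TMM, and 0 higher and 2 lower with library size only. That of H19, Igf2 and Mest hosted miRNAs had 1 of 5 higher, miR-335, and 1 lower under both scalings.

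**Figure D3:**
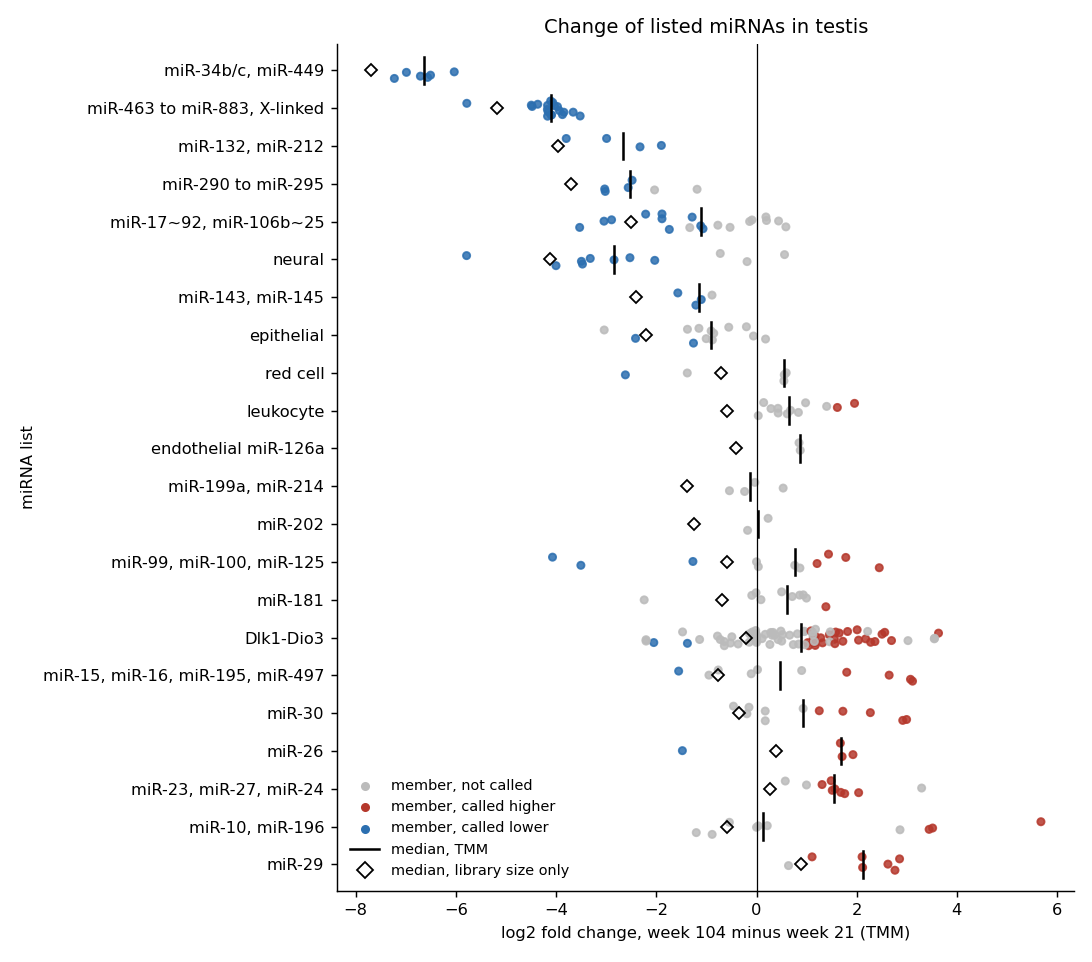
Log2 fold change (week 104 minus week 21, TMM) of the members of 22 miRNA lists in testis, each point a mature miRNA, red where called higher, blue where called lower and grey where not called. The black bar is the list median with TMM and the open diamond that with library size only. The 8 lists at the top have both medians left of 0, and of the lists plotted below them only miR-26, miR-23 with miR-27 and miR-24, and miR-29 have both right of 0.

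Lists that mark other cell types were followed in the same samples. Their counts stand beside 20.3% higher and 22.7% lower over all 616 miRNAs with TMM, and 3.73% and 41.1% with library size only. The miR-143 and miR-145 list, made by smooth muscle and so by peritubular and vascular cells, summed to 140000 to 220900 CPM at week 21 and 17730 to 58530 CPM at week 104, with 3 of 4 members lower, 4 of 4 with library size only, and 1 of 4 with TMM without replicates 3 and 4 of week 104. miR-143-3p, the most abundant miRNA of the adult testis, went from 136940, 160670, 175440 and 219210 CPM to 57977, 44273, 35065 and 17451 CPM. No aged sample reached the adult range, yet with TMM the log2 fold change was -0.89 (SE 0.29, edgeR adjusted p = 0.0163), short of the 2-fold limit, and with library size only it was -2.16 and called.

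In the red cell list 1 of 5 fell. This was miR-486, from 10829, 14601, 16877 and 22725 CPM to 1709, 999, 855 and 905 CPM (log2 fold change -2.62, SE 0.32, edgeR adjusted p = 1.82e-06). miR-451-5p, the best known red cell miRNA, was at 123 ± 21.5 and 76.2 ± 26.3 CPM (SD, n = 4 each) and was not called, at 0.55 with TMM and -0.69 with library size only. The list sum was 10990 to 22840 CPM at week 21 and 900.1 to 1826 CPM at week 104, nearly all of it miR-486. In the leukocyte list 2 of 12 rose with TMM, 5 without replicates 3 and 4 of week 104 and 0 with library size only. Its sum overlapped between the ages, at 2864 to 4433 and 1935 to 4710 CPM, and miR-142-5p, made throughout the blood lineage, was at 1072 ± 204 and 890.1 ± 542 CPM. Its log2 fold change of 0.98 was short of the 2-fold limit, and it was called higher without replicate 2 or 3 of week 21 or without replicate 1, 3 or 4 of week 104, at up to 1.27 without replicate 4.

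The endothelial miR-126a strands (0 of 2 called) summed to 4057 to 9137 and 2587 to 5733 CPM and the mesenchymal miR-199a and miR-214 members (0 of 4) to 1325 to 1939 and 259.9 to 1022 CPM. Both strands of the gonadal miR-202 (0 of 2) summed to 7055 to 9301 and 2594 to 4515 CPM. In the neural list 8 of 11 fell, with sums of 787 to 1125 and 108 to 272 CPM, and miR-9a-5p went from 147.8 ± 33.04 to 14.7 ± 1.69 CPM (SD, n = 4 each). The epithelial list had 2 of 13 lower, with sums of 526 to 840.3 and 118 to 229 CPM, and the hepatocyte miR-122 strands 0 of 2, with sums of 10.9 to 13.7 and 1.92 to 3.52 CPM. The striated muscle list had 2 of 13 higher and 2 lower, among the latter miR-133a-3p at 419 ± 85.1 and 44.3 ± 20.7 CPM. With library size only, which called 41.1% of all 616 miRNAs lower, 2 of 4 mesenchymal, 2 of 2 miR-202 and 7 of 13 epithelial members were lower. So were 9 of 11 neural and 1 of 2 hepatocyte members, and 6 of 13 of the striated muscle list with 1 higher. For the endothelial strands it remained 0 of 2. The part of these cell types in the changes of other miRNAs was not tested.

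**Figure D4:**
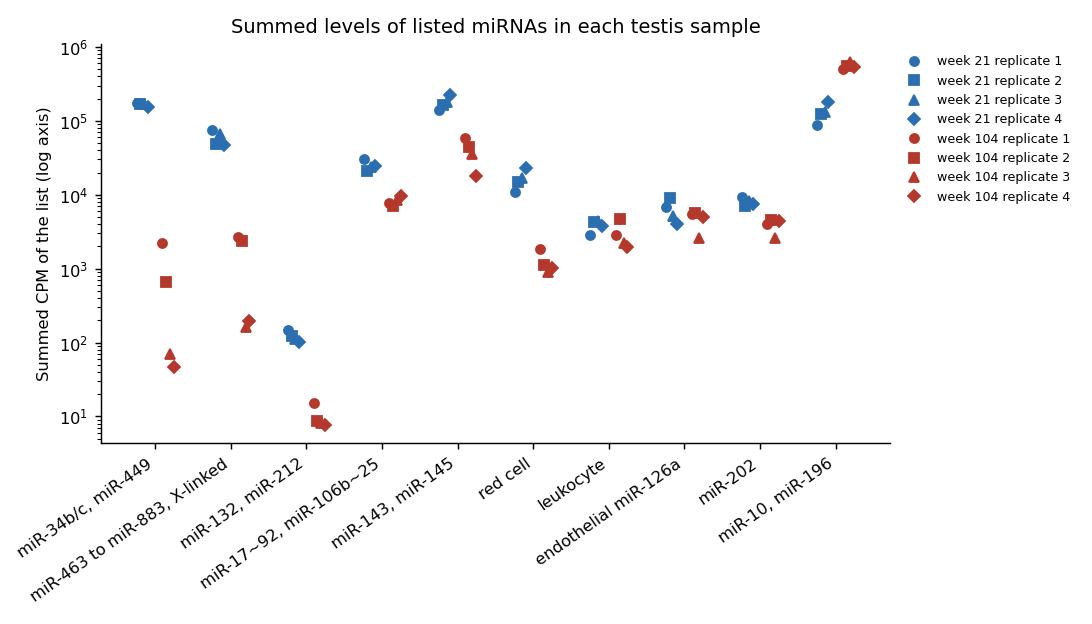
Summed CPM on a log axis of 10 miRNA lists in each of the 8 testis samples, blue for week 21 and red for week 104, with 1 marker shape per replicate number. In the miR-34b/c with miR-449 list and the X-linked list, replicates 1 and 2 of week 104 lie above replicates 3 and 4, within 47 to 2197 CPM and 164 to 2710 CPM. The leukocyte and endothelial lists overlap between the ages and the miR-10 with miR-196 list lies higher at week 104.

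Over the 152 miRNAs with a mean of at least 100 CPM over the 8 samples, the median SD of log2 levels was 0.246 at week 21 and 0.544 at week 104. The SD was larger at week 104 for 126 of them. By this measure the 4 aged rats were less alike than the adult ones. The mean spans both ages, so miRNAs that fell could enter through week 21 and be low at week 104. The part of this in the larger SD was not tested. Among the 57 falls of miRNAs with at least 100 CPM at week 21, the highest aged sample was replicate 1 for 35, replicate 2 for 16 and replicates 3 and 4 for 3 each. For 46 of the 57, replicates 1 and 2 both lay above replicates 3 and 4. This order is in CPM, and the TMM factors were 0.569 and 0.558 for replicates 1 and 2 against 0.303 and 0.471 for replicates 3 and 4. The same order was not counted over all miRNAs, so it is not shown to be a trait of the falls. With replicates 3 and 4 left out, 123 miRNAs were higher and 126 lower. The samples were sequenced in lanes that overlapped only in part. Within lane 2 (1 sample per age) the log2 ratio of CPM of miR-34c-5p was -6.21, and within lane 7 (2 samples of week 21 and 1 of week 104) it was -11.0. For miR-10b-5p the ratios were 2.15 and 2.08. With lane as a term, 100 miRNAs were higher and 128 lower. The log2 fold changes then were -7.53 for miR-34c-5p, -8.58 for miR-449a-5p, -5.40 for miR-743b-3p, -5.29 for miR-3580-3p and -1.48 for miR-212-5p. The rises of miR-322-5p (0.78), miR-196c-5p (1.35) and miR-127-3p (0.96) were not called in that fit.

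Whether other organs of the males changed in the same way was asked in a fit of 80 samples, in which the change in testis was compared with the mean change in 9 other organs. For 171 of the 616 miRNAs this gave no usable test, since groups of other organs had no counts. Of the other 445, the change in testis was higher for 105 (23.6%) and lower for 86 (19.3%), and with library size only for 15 and 196. The mean change of the other organs itself passed for 2 higher and 3 lower. Of the 125 rises in testis 95 also differed in this way, and of the 140 falls 82 did, with 44 further falls having no usable test. A fit with 1 common change for the 9 organs, added after the data were seen, gave a test for all 616 and called 112 higher (18.2%) and 118 lower (19.2%), and with library size only 19 and 250. These included 102 of the 125 rises and 113 of the 140 falls. Without 1 aged thymus sample that stood apart from its group, the first fit called 194 in place of 191.

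Outside testis, miR-34c-5p was highest in lung, at a mean of 3824 CPM at week 21 and 4179 CPM at week 104. Its mean log2 fold change over the 9 organs was 0.056, and the difference was -6.87 (SE 0.58, edgeR adjusted p = 5.88e-16). Of the broadly made miRNAs, miR-10b-5p differed by 3.45 (SE 0.50) and miR-30a-5p by 2.90 (SE 0.31). miR-195-5p differed by 2.87 (SE 0.26) and miR-335 by 4.46 (SE 0.48), and these 4 were also called with library size only. For miR-29a-3p the mean log2 fold change of the other organs was 0.43 and the difference was 2.13 (SE 0.22), which was not called with library size only. For miR-375-3p the difference was -5.31 (SE 0.66), and in mean CPM 7 of the 9 organs lay above the aged testis, against 2 at week 21.

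**Figure D5:**
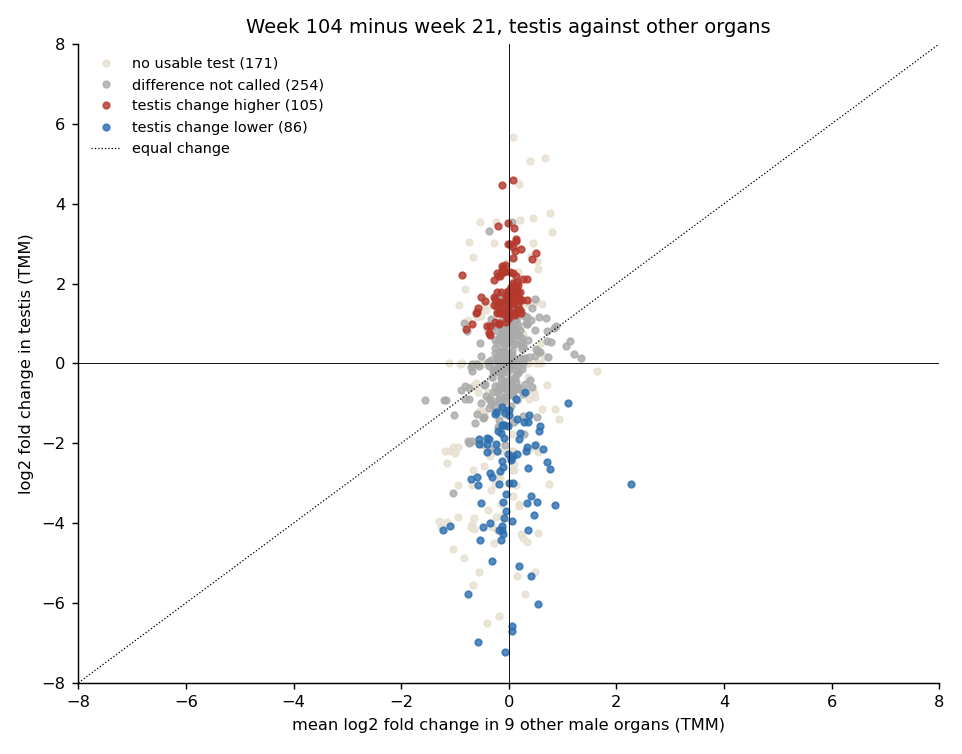
Log2 fold change of each miRNA from week 21 to week 104 in testis (vertical axis, TMM) against the mean log2 fold change in 9 other male organs (horizontal axis, TMM), with the line of equal change dotted. Red and blue points are the 105 and 86 miRNAs whose change in testis was called higher or lower than that mean (15 and 196 with library size only), grey points were not called and pale points had no usable test. The points spread along the vertical axis far more than along the horizontal one.

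The juvenile testis of week 2, in which meiosis is only beginning, gives another reference. Between week 2 and week 104, 93 miRNAs were higher at week 104 (15.1%) and 203 lower (33%) with TMM, and 22 (3.57%) and 418 (67.9%) with library size only, in a comparison that shares the week 104 samples with the one above. miR-34c-5p was on average at 468 CPM at week 2, 133380 at week 6, 131750 at week 21 and 609.7 at week 104. At week 2 its samples held 471, 418, 491 and 492 CPM, above aged replicates 3 and 4 and below replicates 1 and 2. The log2 fold change from week 2 to week 104 of 1.72 (edgeR adjusted p = 0.034) became 0.38 with library size only and 0.35 without replicate 1 of week 104, neither of them called. It was also lost without any 1 sample of week 2, at adjusted p of 0.0622 to 0.0681 in edgeR. miR-449a-5p was at 244, 20879, 22768 and 89.4 CPM and was not called between weeks 2 and 104, except as lower without replicate 1 of week 104 (-1.87). Other falls ended lower than at week 2. miR-871-3p was at 2382 CPM at week 2 and 124 at week 104, miR-298-5p at 511 and 11.2 CPM, and miR-100-5p at 6629 and 401 CPM, all called lower. The call of miR-871-3p was lost without replicate 1 of week 2, where its log2 fold change went from -2.84 to -1.60. Of the 140 falls since week 21, 88 were also called lower than at week 2.

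miR-335 and miR-135b-5p were at 246 and 122 CPM at week 2, at 20.8 and 13.3 CPM at week 21 and at 188 and 128 CPM at week 104. miR-10a-5p, miR-199a-3p and miR-181c-5p, high at week 2 with 55929, 6143 and 16720 CPM, were at 3766, 486 and 1012 CPM at week 104 and called lower than at week 2. miR-29a-3p followed neither course, with means of 461, 2090, 3607 and 8697 CPM at weeks 2, 6, 21 and 104.

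The 5p and 3p strands of a hairpin were compared within samples, as a log2 ratio of counts that does not depend on scaling. Of 52 hairpins with a mean of at least 50 counts for both strands, 0 passed a two-sided exact permutation test after Benjamini-Hochberg adjustment (0%). With 4 samples against 4 the smallest p is 0.02857, and 17 hairpins reached it unadjusted, the 17 whose ratios did not overlap (32.7%). Many more of the 52 would have had to reach this p for any to pass the adjustment. That 0 passed therefore does not show that the ratios were unchanged. The largest shifts were from -2.98 ± 0.75 to -1.11 ± 1.66 for miR-871, from -2.62 ± 0.19 to -0.83 ± 1.03 for miR-3580 and from 0.47 ± 0.19 to 2.17 ± 0.35 for miR-106b (SD, n = 4 each). Ratios of the ages overlapped for miR-871 and not for miR-3580 and miR-106b, whose adjusted p was 0.0874 in the exact permutation test. Hairpins that fell could reach the mean of 50 counts through their adult samples, so their aged ratios could rest on few counts. In the aged samples miR-34c-3p averaged 4.52 CPM and miR-3580-3p 10.2 CPM. The part of this in the shifts of miR-871 and miR-3580, which both fell, was not tested.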

How the data were processed

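Small RNA libraries were made from total RNA of each organ with an Illumina TruSeq kit. The submitters' processing notes and the study's methods name fastp 0.23.2, Bowtie 1.3.1 and the rn7 genome. The deposited values are raw counts of reads per mature miRNA, not normalized, from which the authors had removed miRNAs below 1 count per library on average. Other RNA classes are not in the table, so CPM is a share of miRNA reads. Read duplicates were not marked, and floors cover counting error only.

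edgeR 4.0.16 in R 4.3.3 was run on these counts with TMM and the quasi-likelihood test over 16 testis samples in 4 age groups, with Benjamini-Hochberg adjustment over all 616 miRNAs. A call needed an adjusted p under 0.05 and a 2-fold change. The comparison of organs used 80 male samples. Strand ratios were tested by exact permutation in SciPy 1.17.1, with 0.5 added to each count. Alternatives were library size only, other size factors, DESeq2 1.42.0, a filter on low counts, the 8 samples alone, a replicate block, lane, and leaving out samples. On simulated counts of 616 miRNAs, 166 of 200 4-fold changes were called for week 104 against week 21 with 5 false calls among 416, and 119 of 200 for the difference between organs with 1 false call. The simulation used 1 mean profile per organ, a fixed dispersion (spread beyond counting error) of 0.1 and as many rises as falls. It held no shift like that of miR-10b-5p and no larger spread at week 104. These numbers therefore do not cover errors of scaling in the real samples.

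Samples of a group were different rats, and none of 12 replicate pairs agreed within sampling noise (lowest chi-square per degree of freedom 56.8). Each rat gave 10 organs, and equal numbers within an age were read as the same rat, which the labels do not state. With that number as a replicate block, 191 miRNAs differed between testis and other organs, the number found without it.

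Named miRNAs were the marker, the 12 largest rises and falls among calls with at least 100 CPM in the higher group, the 6 most abundant at each age, candidates of at least 10 CPM, the 3 hairpins with the largest strand shift, and the most abundant members of 33 lists, of which mostly the top 2 are given. Seed relatives are named with their sequences, and miR-34a-5p, miR-298-3p, miR-208a-3p and miR-196c-5p were added after values were seen. The members, lists and this rule were chosen with earlier results of these data known. Sequences are those of the count table. They equal the RefSeq entry of the same name for 551 miRNAs, and the other 65 had no match. RefSeq placements on GRCr8, a build other than that of the files, served only for chromosomes and neighbours.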

Additional observations from a re-analysis of the deposited data

Results flagged for a closer look

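In 9 of 158 groups (79 miRNAs at 2 ages) 1 sample lay far from the other 3, by a gap that chance gives in about 1 of 20 groups, or 7.9 of 158. At week 104 this was replicate 1 for miR-486 (1709 CPM), miR-148a-3p (9072 CPM) and miR-296-5p (5.82 CPM), each the highest, and for miR-335 (120.3 CPM), the lowest. It was also replicate 3 for miR-126a-3p (540.1 CPM, the lowest) and replicate 4 for miR-196c-5p (70.02 CPM, the highest). At week 21 it was replicate 1 for miR-34b-5p (10220 CPM) and miR-212-5p (31.99 CPM), each the highest, and replicate 4 for miR-26b-5p (2237 CPM), the lowest.

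The 12 largest rises and 12 largest falls were chosen for the size of their change in testis, so a difference from other organs was largely set by that choice, and over all miRNAs with a usable test 191 of 445 differed. For 21 of these 24 the change in testis differed from the mean change in the 9 other male organs by edgeR's quasi-likelihood test of the difference. On the log2 scale, testis minus the other organs, the rises differed by 4.46 for miR-335, 4.60 for miR-135b-5p, 3.45 for miR-10b-5p, 3.62 for miR-10b-3p, 3.28 for miR-32-5p, 2.87 for miR-195-5p, 2.90 for miR-30a-5p, 2.75 for miR-30c-2-3p, 2.21 for miR-29b-3p, 2.51 for miR-497-5p, 2.13 for miR-29a-3p and 2.39 for miR-101a-3p. The falls differed by -7.26 for miR-34b-5p, -6.50 for miR-449a-5p, -6.87 for miR-34c-5p, -6.72 for miR-34b-3p, -6.67 for miR-34c-3p, -5.11 for miR-871-3p, -5.83 for miR-296-5p, -5.31 for miR-375-3p and -4.72 for miR-298-5p. The other 3 had no usable test in that fit. With 1 common change for the 9 organs, miR-449c-5p differed by -6.13 (SE 0.61, edgeR adjusted p = 1.66e-13), and miR-742-5p (-3.70, SE 2.24) and miR-3580-3p (-3.10, SE 2.13) did not pass.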

How the results depend on the processing

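Scaling had the largest effect on the counts: under library size only 23 miRNAs were higher and 253 lower at week 104 than at week 21, instead of 125 and 140. Other settings kept both counts within 1.5 times, with 127 and 139 by DESeq2 (which gave no adjusted p for 31 miRNAs, miR-34c-5p among them), 153 and 101 with a mean count of at least 10, and 117 to 137 higher and 134 to 142 lower when 1 sample was left out. Leaving out 1 testis sample gave 169 to 197 differences from the other organs and 284 to 300 calls between weeks 104 and 2. Between weeks 104 and 2, library size only gave 440 calls and a mean count of at least 10 gave 210, instead of 296. With the replicate number as a block, 118 were higher and 138 lower. Between ages these numbers mark different rats, and the deviations of samples with the same number correlated at 0.0904, 0.0441, 0.114 and 0.0485, so they were not taken as pairs.

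Direction turned for named miRNAs that were mostly not called with TMM. With library size only these were miR-10a-5p (-1.17), miR-22-3p (-0.34), miR-181a-5p (-0.80), miR-127-3p (-0.32), miR-191a-5p (-1.10), miR-30d-5p (-1.14), miR-99b-5p (-1.36), miR-126a-5p (-0.42), miR-148a-3p (-0.52), miR-21-5p (-0.078), miR-126a-3p (-0.41), miR-142-5p (-0.27), miR-351-5p (-1.02), miR-182 (-1.19), miR-411-5p (-0.099), miR-181c-5p (-0.34), miR-146b-5p (-0.99), miR-451-5p (-0.69) and miR-202-5p (-1.05). With a mean count of at least 10 they were miR-16-5p (0.18), miR-92a-3p (0.17), miR-128-3p (0.093), miR-199a-3p (0.21) and miR-199a-5p (0.0028), with lane as a term miR-92a-3p (0.20), miR-182 (-0.099), miR-199a-3p (0.049), miR-146b-5p (-0.16) and miR-199a-5p (0.081), and without replicates 3 and 4 of week 104 (chosen after seeing the data) miR-10a-5p (-0.094), miR-99b-5p (-0.16), miR-16-5p (0.080), miR-199a-3p (0.41) and miR-199a-5p (0.16). miR-199a-3p also turned with other size factors (0.034), DESeq2 (0.033) and the 8 samples alone (0.0023). Leaving out 1 sample gave ranges of -0.16 to 0.40 for miR-10a-5p, -0.25 to 0.24 for miR-99b-5p, -0.21 to 0.062 for miR-16-5p, -0.32 to 0.070 for miR-92a-3p, -0.42 to 0.40 for miR-351-5p, -0.20 to 0.21 for miR-182, -0.18 to 0.28 for miR-199a-3p and -0.35 to 0.035 for miR-199a-5p. The cause of these turns was not tested.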
